A study of Sus scrofa with 6 samples.

Results

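The microRNAs miR-504, miR-339, miR-345 and miR-574 were followed through 12 tooth germ RNAs of miniature pig (Sus scrofa). They were read by 10 of the 742 experimental probes of the array, 3 each for miR-504, miR-339 and miR-345 and 1 for miR-574. A probe was a member when its name carried one of these 4 numbers, on any arm. The numbers had been picked because ratios of molar or premolar over incisor or canine germs were high in these same data, so differences between tooth types are given as a description, without a test. All 10 probes were above background in at least 3 of 12 RNAs, the condition for entering the tests.

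The RNAs came from whole deciduous tooth germs dissected from embryos, with no treatment or genetic change named in the labels. The 12 groups were incisor, canine, premolar and molar germs at embryonic days 40, 50 and 60, with 1 RNA in each group and no replicate. Incisor and canine germs are called anterior below, premolar and molar germs posterior. Each of the 6 arrays held 2 RNAs, one per dye, and carried 4 spots of every probe; the labels do not say whether embryos were pooled. Because the tissue was taken whole, fewer cells of a type and less of an RNA per cell cannot be told apart in any level given here.

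A microRNA is a short RNA that guides the silencing machinery to messenger RNAs, chiefly through its seed, the stretch from base 2 to base 8. It is cut from a hairpin with 2 arms, 5p and 3p, of which one often accumulates more than the other. A tooth germ joins an epithelium, which later forms enamel, with a mesenchyme that forms dentin and pulp, and microRNAs are needed in both layers in mouse. In human cells, miR-504 has been reported to repress the p53 gene and miR-339-5p to repress MDM2, which marks p53 for breakdown. miR-345 has been studied in human tumour cells, and miR-574-3p has been reported to act downstream of SOX9 in human cartilage-forming cells.

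The sequences below are the targets that the probes were made to read, as written in the deposited files, from 5′ to 3′. They are shown because 3 microRNAs are read by near-copies, which decides how many separate signals the 10 probes hold. Capitals mark the seed.
ssc-miR-504: aGACCCUGgucugcacucuaucu
miR-504-5p-623: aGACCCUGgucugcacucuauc
miR-504-3p-35231: aGGGAGCGcagggcaggguuucu
ssc-miR-339: uCCCUGUCcuccaggagcucac
miR-339-5p-24465: uCCCUGUCcuccaggagcucacu
miR-339-3p-22035: gAGCUCCUcgaggccagagccc
ssc-miR-345-5p: gCUGACUCcuaguccagugcu
miR-345-5p-26266: gCUGACUCcuaguccagugcuu
ssc-miR-345-3p: cCCUGAACuaggggucuggag
ssc-miR-574: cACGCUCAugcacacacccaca

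Names with the prefix ssc are mature pig microRNAs, and the other names are custom probes. Within miR-504, miR-339 and miR-345-5p the pig probe and its custom twin share the seed and differ only in that one of them has 1 base more at the 3′ end. Each pair of twins may therefore read one RNA and is not separate evidence. The counts of members below are counts of probes and hold both twins. The sequence of ssc-miR-574 is that of the arm known in human as miR-574-3p. No seed was shared between members of different microRNAs. One other probe of the array shared a seed with a member, PC-345-3p-22893, a predicted candidate whose target is that of ssc-miR-345-3p with 1 base more. The GC content of the members ran from 52.2% to 72.7%, against a median of 50% over the tested probes, whose 10th and 90th percentiles were 36.4% and 64.9%.

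In the RefSeq gene table for the pig assembly Sscrofa11.1, used for names only, MIR504 lies within the span of FGF13, which encodes a regulator of sodium channels. MIR574 lies within FAM114A1. For miR-339 the table holds 2 genes, MIR339-1 within C3H7orf50 and MIR339-2 within MEGF11, and the array does not tell their products apart. MIR345-1 overlaps no other gene and stands between the mitochondrial carrier genes SLC25A29 and SLC25A47.

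Over all probes, 266 to 732 of 742 were above background in an RNA, and on 6 of 6 arrays the right-hand signal column had fewer of them. Above background means that the mean of the 4 spots lay more than 3 standard deviations of the blank spots above the local background. That standard deviation was estimated from the median absolute deviation of the blank spots. The day-50 and day-60 molars shared 1 array, and that array stood apart. These 2 RNAs were both below the other 10 RNAs for 20.9% of the 656 tested probes. Later molars and their array cannot be told apart, and values are therefore also given without that array. All levels are normalised log2 intensities, in which 1 unit is a 2-fold difference, and the error on a single RNA is the SD of its 4 spots. Levels are compared between RNAs and never between probes.

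ssc-miR-504 was highest in the day-40 molar and in the premolars and low in the incisors at every day. The 3 incisors read 6.87 ± 0.11, 6.85 ± 0.14 and 6.86 ± 0.10 at days 40, 50 and 60, the day-50 value being not well above background. The canines read 7.65 ± 0.12, 6.68 ± 0.05 and 7.58 ± 0.11 in the same order. The premolars read 8.09 ± 0.23, 8.02 ± 0.23 and 8.92 ± 0.13, above every incisor and every canine. The molars read 9.55 ± 0.18, 6.81 ± 0.07 and 6.77 ± 0.07, so that the molar held both the highest value of the 12 RNAs and 2 of the 3 lowest. The lowest value of all was that of the day-50 canine. Before any normalisation, within or between arrays, the background-subtracted intensity of the day-50 molar was 112.9, above the incisors at 29.5, 18.3 and 48.4. The day-50 and day-60 canines were at 37.8 and 52.5, and the day-60 molar was at 39.4. The low rank of the day-50 molar for this probe thus depended on the normalisation, whose steps within and between arrays were not separated here. For the twin miR-504-5p-623 the day-50 molar was at 37.0, not above background, with the incisors at 32.2, 7.6 and 47.4.

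Between the day-40 and the day-50 molar the level of ssc-miR-504 differed 6.68-fold, a comparison across arrays. By tooth type, its mean over days was 8.35 ± 0.50 (SD, n = 3 RNAs) in premolars, 7.71 ± 1.59 in molars, 7.30 ± 0.54 in canines and 6.86 ± 0.01 in incisors. In this order the premolar and incisor values did not overlap, whereas the molar values overlapped those of all 3 other types. The twin miR-504-5p-623 ran in parallel (Pearson r = 0.99 over the 12 RNAs), with 8.99 ± 0.14 in the day-40 molar and 8.31 ± 0.15 in the day-60 premolar. It was not well above background in the day-50 incisor and in both later molars.

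**Figure D1:**
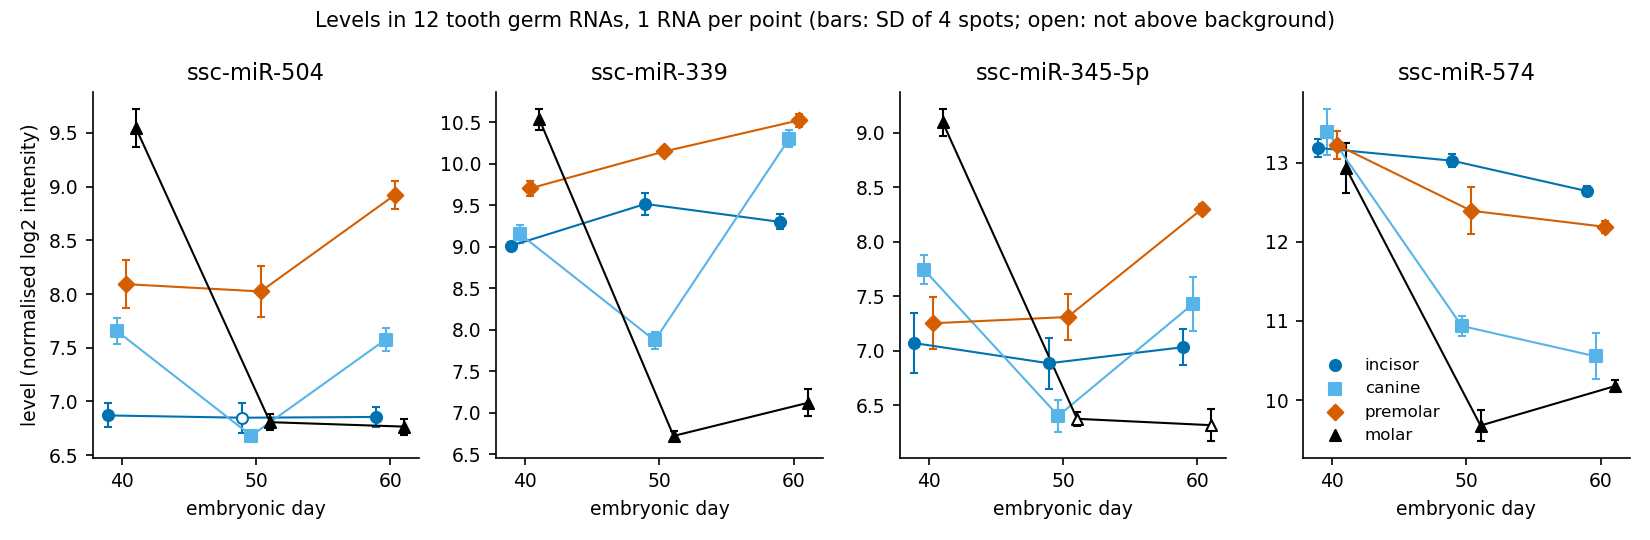
Levels (normalised log2 intensity, vertical axis, a separate scale in each panel) of the 4 mature pig probes against embryonic day, 1 point per RNA, coloured by tooth type, with the SD of 4 spots as bars and open symbols where the probe was not above background. The molar line drops from 9.55 to 6.81 for ssc-miR-504 and from 10.54 to 6.72 for ssc-miR-339 between days 40 and 50, while the premolars of ssc-miR-504 stay at 8.02 to 8.92.

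ssc-miR-339 was above background in all 12 RNAs. Its incisors read 9.01 ± 0.05, 9.52 ± 0.13 and 9.30 ± 0.09 at days 40, 50 and 60. Its canines read 9.15 ± 0.11, 7.87 ± 0.10 and 10.30 ± 0.10. Its premolars read 9.70 ± 0.09, 10.15 ± 0.06 and 10.52 ± 0.08, all above every incisor, although the day-60 canine exceeded 2 of them. Its molars read 10.54 ± 0.13, 6.72 ± 0.06 and 7.12 ± 0.16, the highest value of the 12 and the 2 lowest.

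The molar level of ssc-miR-339 was 14.1-fold higher at day 40 than at day 50, and the canine level was 5.39-fold higher at day 60 than at day 50, both across arrays. Means by tooth type were 10.13 ± 0.41 (SD, n = 3) for the premolar, 9.28 ± 0.25 for the incisor, 9.11 ± 1.22 for the canine and 8.13 ± 2.10 for the molar. Incisor and canine values overlapped, and so did those of canines and premolars. The twin miR-339-5p-24465 differed from ssc-miR-339 by at most 0.07 in any RNA.

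ssc-miR-345-5p followed a course close to that of miR-504. The incisors read 7.07 ± 0.28, 6.88 ± 0.23 and 7.03 ± 0.17 at days 40, 50 and 60. The canines read 7.74 ± 0.13, 6.40 ± 0.15 and 7.43 ± 0.25. The premolars read 7.25 ± 0.24, 7.31 ± 0.21 and 8.30 ± 0.05, and here the day-40 canine exceeded 2 of the 3 premolars. The molars read 9.10 ± 0.12, 6.37 ± 0.06 and 6.32 ± 0.15, the highest value and the 2 lowest, and the later molars were not well above background. Means were 7.62 ± 0.59 (SD, n = 3) in premolars, 7.26 ± 1.59 in molars, 7.19 ± 0.70 in canines, with incisors at 6.88 to 7.07. Among all pairs of tooth types, only premolars and incisors did not overlap. The twin miR-345-5p-26266 read 8.75 ± 0.14 in the day-40 molar and 7.91 ± 0.07 in the day-60 premolar, its 2 highest values.

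ssc-miR-574 was above background in all 12 RNAs and had another pattern. At day 40 its 4 germs lay close together, at 13.19 ± 0.12 in the incisor, 13.39 ± 0.29 in the canine, 13.23 ± 0.18 in the premolar and 12.93 ± 0.32 in the molar. At day 50 the incisor read 13.02 ± 0.08, the canine 10.94 ± 0.13, the premolar 12.39 ± 0.30 and the molar 9.68 ± 0.20. At day 60 the incisor read 12.64 ± 0.07, the canine 10.55 ± 0.29, the premolar 12.19 ± 0.07 and the molar 10.18 ± 0.07. Incisors and premolars thus stayed high through the course, while canines and molars were lower at the later days. The canine level was 5.47-fold higher at day 40 than at day 50, across arrays, and the day-60 canine, which was not on the later-molar array, was as low as 10.55. Means were 12.95 ± 0.28 (SD, n = 3) in incisors, 12.60 ± 0.55 in premolars, 11.63 ± 1.54 in canines and 10.93 ± 1.75 in molars, with overlap between each neighbouring pair in this order. Before any normalisation, within or between arrays, the later molars had background-subtracted intensities of 3321 and 2696. These were above the 1000.1 of the day-60 canine and the 1853 of the day-50 canine. After normalisation, the later molars stood below both canines, so this order depended on the normalisation. Its steps within and between arrays were not separated here.

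The 3p probes of the other microRNAs stayed near background. miR-504-3p-35231 read between 6.38 and 6.98 and was above background in 7 of 12 RNAs. miR-339-3p-22035 read between 6.32 and 6.68 and ssc-miR-345-3p between 6.41 and 7.05, each above background in 6 of 12 RNAs. None of the 3 ranged over more than 0.64 log2 units in the 12 RNAs. ssc-miR-345-3p and ssc-miR-345-5p had r = 0.40 over the 12 RNAs, and miR-504-3p-35231 and ssc-miR-504 had r = 0.32.

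**Figure D2:**
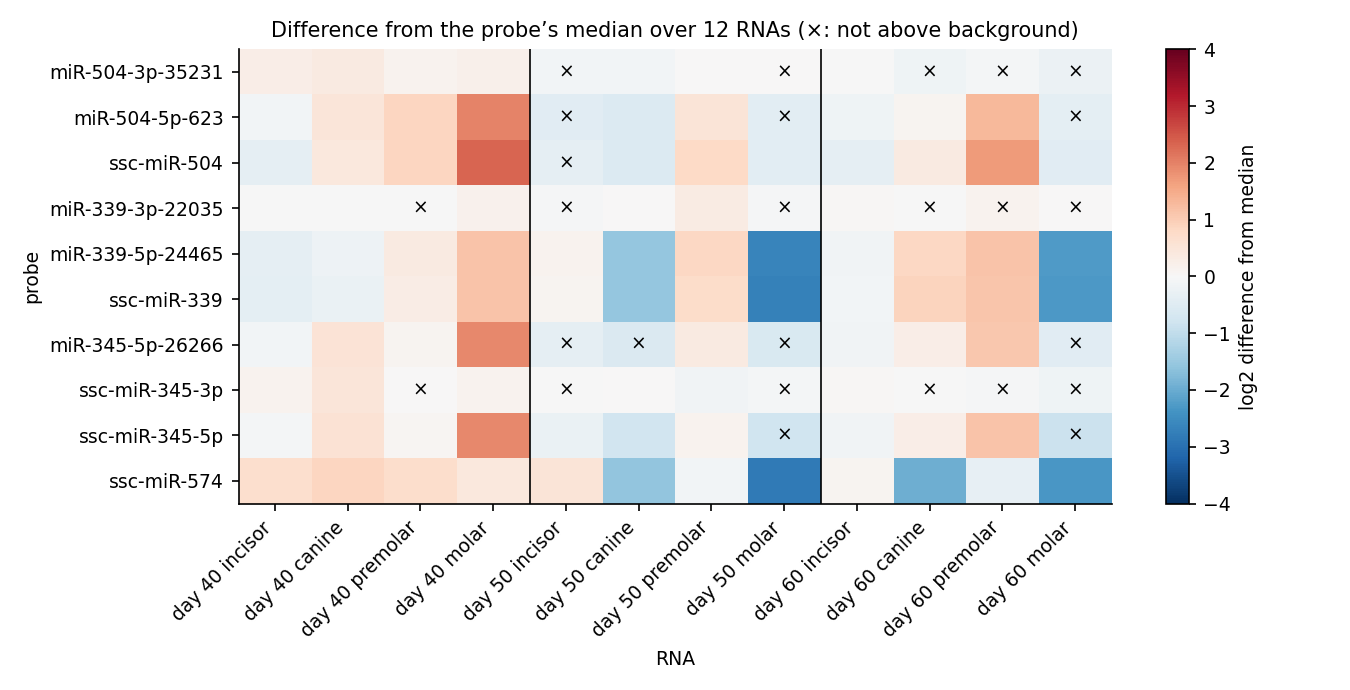
Difference of each probe (rows) from its own median over the 12 RNAs (columns, grouped by day), in log2 units, red above and blue below, with a cross where the probe was not above background. The 5p probes of miR-504, miR-339 and miR-345 are red in the day-40 molar, and the rows of the miR-339 5p probes and ssc-miR-574 are blue in the later molars.

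Ratios between RNAs on the same array are free of differences between arrays but not of dye, since no pair was repeated with the dyes exchanged. The posterior RNA carried Cy5 on the arrays of the day-40 molar, the day-40 premolar and the day-60 premolar and Cy3 on that of the day-50 premolar, and the day-50 incisor carried Cy5 against its canine. In the limma fit described below, Cy5 minus Cy3 was 0.42 for ssc-miR-504, 0.68 for ssc-miR-339, 0.40 for ssc-miR-345-5p and -0.11 for ssc-miR-574 on the log2 scale (adjusted p = 0.30 for ssc-miR-339 and higher for the others). Dye and region cannot be told apart on any one array. A ratio was counted when 4 of 4 spots reached 2-fold with one sign, and the share of all probes that met this, among those above background in at least 1 of the 2 RNAs, stands beside each count. Of the 6 arrays, 4 paired a posterior with an anterior germ and were used in choosing the members, so their ratios are a description only.

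On the array of the day-40 molar and canine, 6 of 10 members were higher in the molar (2.13% of all probes) and 0 lower (1.84%). ssc-miR-504 was 3.71-fold higher (log2 1.89 ± 0.21, SD of 4 spots). ssc-miR-339 was 2.62-fold higher (log2 1.39 ± 0.09). ssc-miR-345-5p was 2.55-fold higher (log2 1.35 ± 0.15). The other 3 of these 6 were the twins, at 2.52-fold to 2.82-fold. ssc-miR-574 ran the other way, with a log2 ratio of -0.46 ± 0.04.

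On the array of the day-60 premolar and incisor, 5 of 10 members were higher in the premolar (5.27% of all probes). ssc-miR-504 was 4.19-fold higher (log2 2.07 ± 0.22), the largest member ratio on the 4 arrays of this kind. ssc-miR-345-5p was 2.41-fold and ssc-miR-339 2.33-fold higher. miR-345-5p-26266 passed 2-fold in 3 of 4 spots and lay just outside the count. ssc-miR-574 again ran the other way (log2 -0.45 ± 0.04).

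The day-40 premolar and incisor differed less. Of the 10 members, 1 was counted as higher in the premolar (2.78% of all probes), ssc-miR-504 at 2.33-fold (log2 1.22 ± 0.15). ssc-miR-339 was at 1.61-fold in the same direction without passing 2-fold in any spot, and ssc-miR-345-5p was at log2 0.18 ± 0.25, within the spread of its spots around 0. ssc-miR-574 was level between these RNAs (log2 0.04 ± 0.11).

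The fourth array paired the day-60 canine with the day-50 premolar, which differ in day as well as in tooth type. Of the 10 members, 1 was counted as lower in the canine (1.78% of all probes) and 0 as higher (2.32%). It was ssc-miR-574 at 3.58-fold (log2 -1.84 ± 0.05). This was the one posterior over anterior ratio of at least 2-fold for ssc-miR-574. ssc-miR-504 was at log2 -0.45 ± 0.31, while ssc-miR-339 and ssc-miR-345-5p were at 0.15 ± 0.07 and 0.12 ± 0.10. On this array, the one with the posterior RNA in Cy3, no 5p probe of miR-504, miR-339 or miR-345 thus reached 2-fold.

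**Figure D3:**
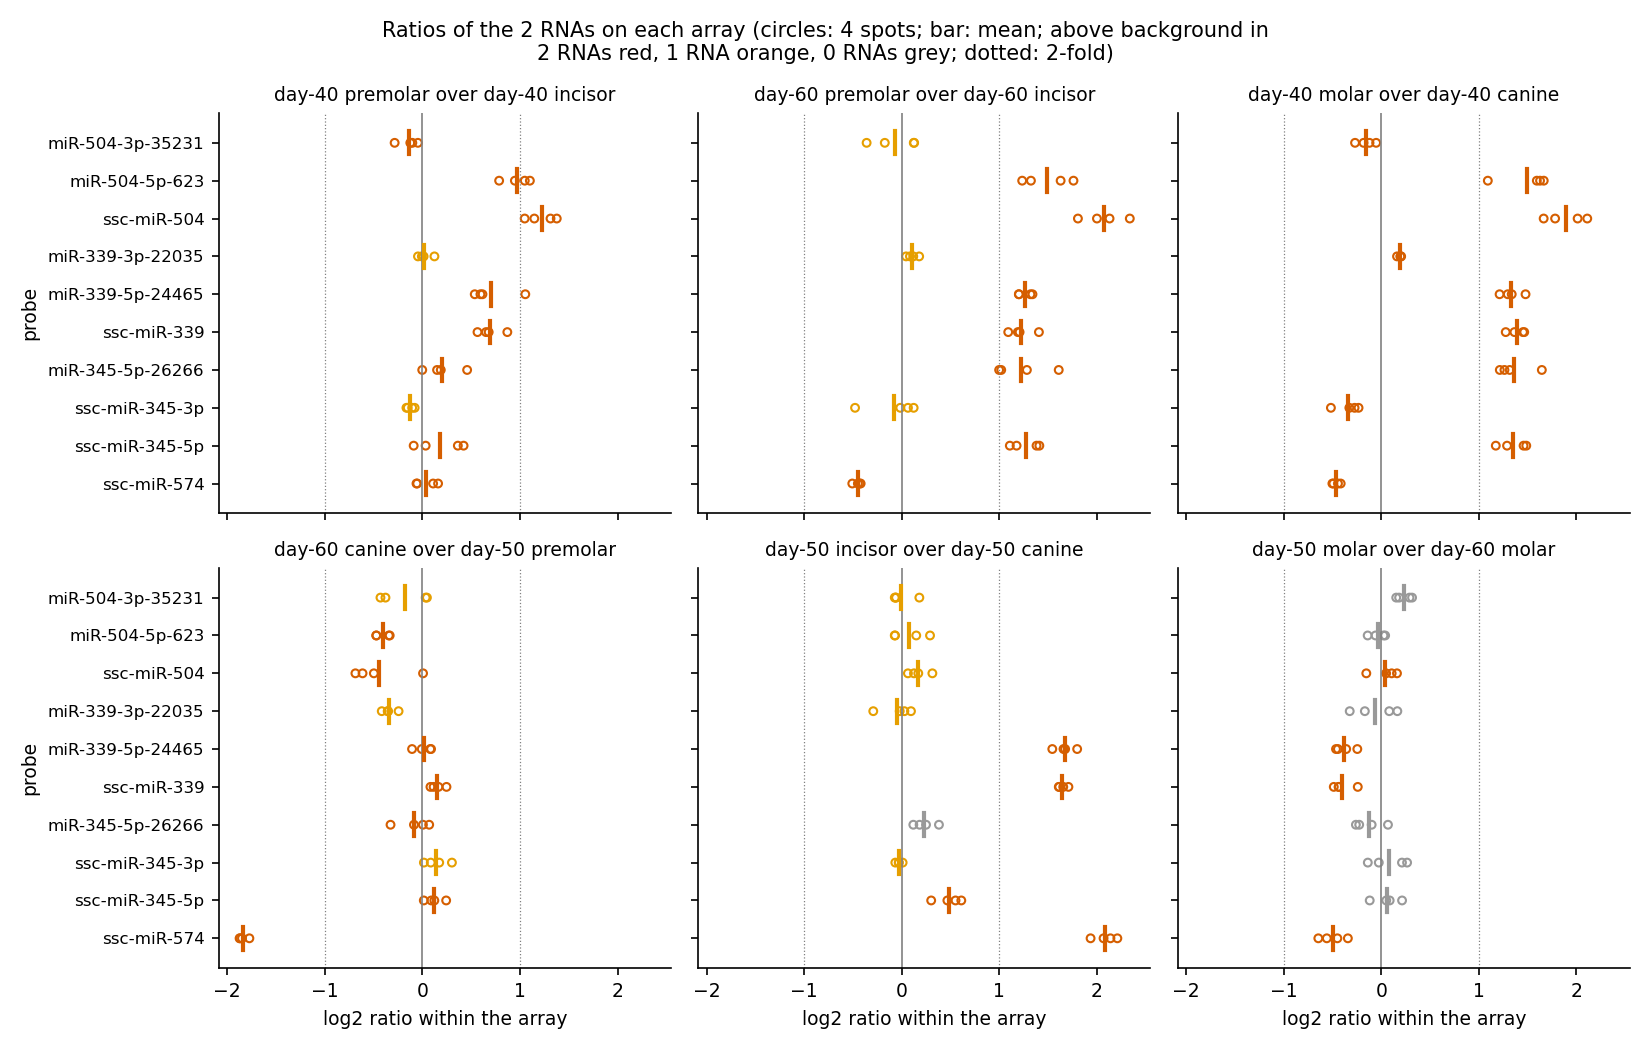
Log2 ratios of the 10 probes within each of the 6 arrays, with the 4 spots as circles and their mean as a bar, dotted lines at 2-fold, and colour for the number of RNAs in which the probe was above background. The 5p probes of miR-504, miR-339 and miR-345 lie right of 2-fold for the day-40 molar over canine, and ssc-miR-574 and the miR-339 5p probes lie right of it for the day-50 incisor over canine.

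The other arrays compared RNAs within one region and took no part in the choice. On the array of the day-50 incisor and canine, 3 of 10 members were higher in the incisor (6.77% of all probes) and 0 lower (4.06%). ssc-miR-339 was 3.13-fold higher (log2 1.65 ± 0.05, SD of 4 spots), and its twin 3.18-fold. ssc-miR-574 was 4.25-fold higher (log2 2.09 ± 0.12), a larger ratio than on any of the arrays used in the choice. For ssc-miR-339, as for ssc-miR-574, this ratio between 2 anterior germs was larger than any of its posterior over anterior ratios. ssc-miR-345-5p was at log2 0.48 ± 0.13. ssc-miR-504 was at log2 0.17 ± 0.11, slightly toward the incisor, although it was above background in the canine only. Over all probes, 517 were above background in this canine and 266 in this incisor. On the array of the day-50 and day-60 molars, 0 of 10 members met the 2-fold condition (2.07% of all probes higher, 1.18% lower). ssc-miR-574 was at log2 -0.50 ± 0.13 and ssc-miR-339 at -0.40 ± 0.11 for day 50 over day 60, and ssc-miR-504 was at 0.04 ± 0.14.

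The authors' deposited table gave larger ratios for ssc-miR-504 and ssc-miR-345-5p on the arrays of a premolar with an incisor and of the day-40 molar with the canine. For ssc-miR-504 the authors' deposited table held log2 2.92, 3.02 and 2.50 for the day-40 premolar over incisor, the day-60 premolar over incisor and the day-40 molar over canine. For ssc-miR-345-5p it held 0.62, 2.18 and 1.91 in the same order. For ssc-miR-339 the authors' deposited table held 0.75, 1.17 and 1.38, close to the ratios above, but 2.22 for the day-50 incisor over canine, against 1.65 here. For ssc-miR-574 it held -1.92 for the day-60 canine over the day-50 premolar and 2.27 for the day-50 incisor over canine. Background removal with an offset of 50 draws ratios of dim probes toward 0 by its construction. Its part in these differences was not tested, and how the authors treated background is not given in the sources used here.

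Over all 12 RNAs and after scaling between arrays, the members were not generally higher in posterior germs. The later molars, which weigh on this, cannot be told apart from their array. Of the 10 members, 5 had a higher mean in the 6 posterior than in the 6 anterior RNAs, against 50.6% of tested probes, and the median difference of the members was 0.04 on the log2 scale, against 0.00 over all tested probes. Without the later-molar array the count was 9 of 10 and the median 0.91, against 48.0% and -0.01 over all tested probes. The posterior RNAs that remain are those of the arrays used in choosing the members. These values therefore follow in part from the choice and are a description only. ssc-miR-504 had 8.03 ± 1.11 (SD, n = 6) in posterior and 7.08 ± 0.42 in anterior germs, a difference of 0.95. This difference was 1.57 without the later-molar array. For ssc-miR-339 the difference was -0.07 with all RNAs and 1.04 without that array. For ssc-miR-345-5p it was 0.35 and 0.90. For ssc-miR-574 it was -0.52 and 0.40, so that the signs for ssc-miR-339 and ssc-miR-574 depended on the later-molar array.

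No member separated the 6 posterior from the 6 anterior RNAs completely, as 0.152% of tested probes did. The 3 premolars lay above the 3 incisors for 6 of 10 members, the 5p probes of miR-504, miR-339 and miR-345 (5.79% of tested probes). They lay above the 3 canines for 2 of 10, both miR-504 5p probes (2.74%). The later molars were the 2 lowest RNAs for 4 of 10 members, ssc-miR-574, ssc-miR-345-5p and both miR-339 5p probes, against the 20.9% of tested probes given above. The day-40 molar was the highest RNA for 5 of 10, against 12.3% of tested probes. In these 5, the pig probes of miR-504, miR-339 and miR-345-5p were joined by the twins of miR-504 and miR-345-5p.

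The choice of members named no embryonic day, and day was tested in limma with the other tooth types standing as replicates of a day (n = 4 RNAs per day). The fit held tooth type, day and dye, with array as a random block, and p-values were adjusted by Benjamini-Hochberg over the 656 tested probes. Day is not fully independent of the choice. The day-40 molar, whose high ratios entered the choice, is 1 of the 4 RNAs of day 40, and the array of the day-60 canine and day-50 premolar differs in day as well. Between days 60 and 40, 0 of 10 members passed the threshold of 0.05 in either direction. The background was 0% higher and 0.762% lower, and at an unadjusted p below 0.05 it was 3.81% higher and 6.25% lower. The members with an unadjusted p below 0.05 were ssc-miR-574 and miR-504-3p-35231. The moderated F test for any difference between days gave 0% of probes past the threshold, and 15.5% with an unadjusted p below 0.05.

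ssc-miR-574 had a mean of 13.18 ± 0.19 (SD, n = 4) at day 40, a range of 9.68 to 13.02 at day 50 and a mean of 11.39 ± 1.21 at day 60. The fitted day 60 minus day 40 difference was -1.65 ± 0.63 (SE, limma adjusted p = 0.430, unadjusted p = 0.0374). The level was lower at day 60 than at day 40 in 4 of 4 tooth types, by -0.55 in the incisor, -1.04 in the premolar, -2.75 in the molar and -2.84 in the canine. A lower level at day 60 than at day 40 in 4 of 4 tooth types was seen for 3 of 10 members, against 16.3% of tested probes. Without the array of the day-40 premolar and incisor, the difference of ssc-miR-574 was -2.92 and passed (limma adjusted p = 0.0377). That fit had a correlation within arrays of -0.34, against 0.83 with all arrays, and 17 probes passed in place of 5. Without the array of the day-60 canine and day-50 premolar the difference was -0.40, and without that of the day-40 molar and canine it was -0.58.

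miR-504-3p-35231 differed by -0.44 ± 0.12 between days 60 and 40 (limma adjusted p = 0.256, unadjusted p = 0.00874), and was lower at day 60 in 4 of 4 tooth types. It was not above background in 3 of the 4 day-60 RNAs, so its level there has only an upper bound. Those 3 RNAs were all in the right-hand signal column, which had fewer probes above background on every array. ssc-miR-345-3p, the remaining probe that was lower in 4 of 4 tooth types, differed by -0.27 ± 0.11 (limma adjusted p = 0.487). It was not above background in the same 3 of 4 day-60 RNAs.

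For the 5p probes of miR-504, miR-339 and miR-345 the tooth types did not share one course. ssc-miR-504 had -0.55 ± 0.68 for day 60 minus day 40 (limma adjusted p = 0.960), made of -2.78 in the molar, 0.83 in the premolar and -0.08 and -0.01 in the canine and the incisor. ssc-miR-339 had -0.20 ± 0.92 (adjusted p = 0.995), made of -3.42 in the molar and 0.29, 0.82 and 1.15 in the incisor, premolar and canine. ssc-miR-345-5p had -0.61 ± 0.72 (adjusted p = 0.952), with -2.78 in the molar and 1.05 in the premolar. The 95% interval for ssc-miR-504 ran from -2.20 to 1.10, and that for ssc-miR-339 from -2.43 to 2.04, so differences of 2-fold in either direction lie within both. Of the 10 members, 9 had a negative day 60 minus day 40 difference, with a median of -0.46 against 0.00 and 48.9% lower over all tested probes. This count holds twins and rests on the day-40 molar, whose high ratios entered the choice, so it is a description only. Without the array of the day-40 molar and canine the difference was 0.37 for ssc-miR-504 and 1.00 for ssc-miR-339. It was 0.43 for ssc-miR-345-5p and -0.58 for ssc-miR-574. Without the later-molar array the difference was 0.03 for ssc-miR-504 (limma adjusted p = 0.986), 0.37 for ssc-miR-339, -0.01 for ssc-miR-345-5p and -1.81 for ssc-miR-574.

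**Figure D4:**
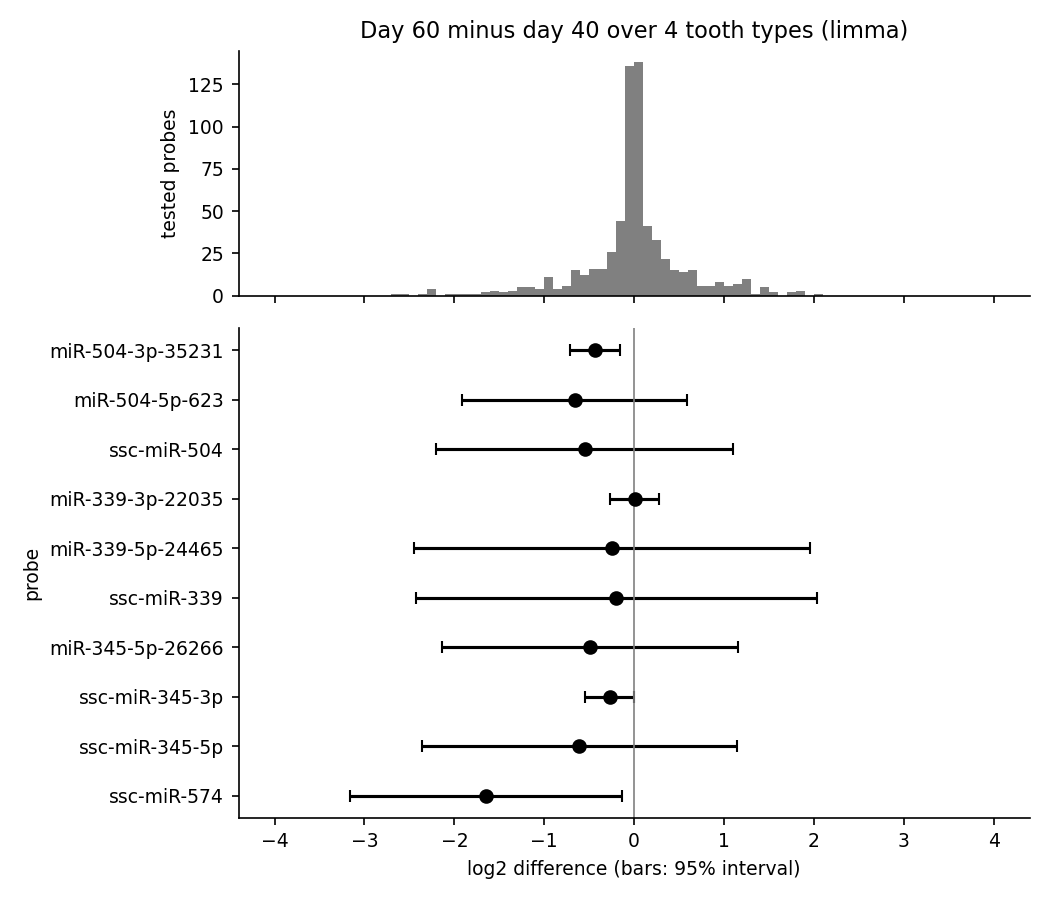
Day 60 minus day 40 differences on the log2 scale from limma, above as a histogram over the 656 tested probes and below for the 10 members with 95% intervals. The interval of ssc-miR-574 (-1.65) lies below 0 before adjustment, and those of the 5p probes of miR-504, miR-339 and miR-345 span 0.

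The 4 microRNAs were compared with each other and with the mature pig probes by their course over the 12 RNAs. The points of these correlations share arrays, dyes and scaling, and r is a description. ssc-miR-504 and ssc-miR-345-5p had r = 0.93, and 0.93 again without the later molars (10 RNAs). ssc-miR-504 and ssc-miR-339 had r = 0.73, and ssc-miR-339 and ssc-miR-345-5p 0.80. ssc-miR-574 stood apart, with r = 0.38 to ssc-miR-504, which was 0.16 without the later molars. Its r to ssc-miR-339 went from 0.64 to 0.08 on leaving the later molars out.

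**Figure D5:**
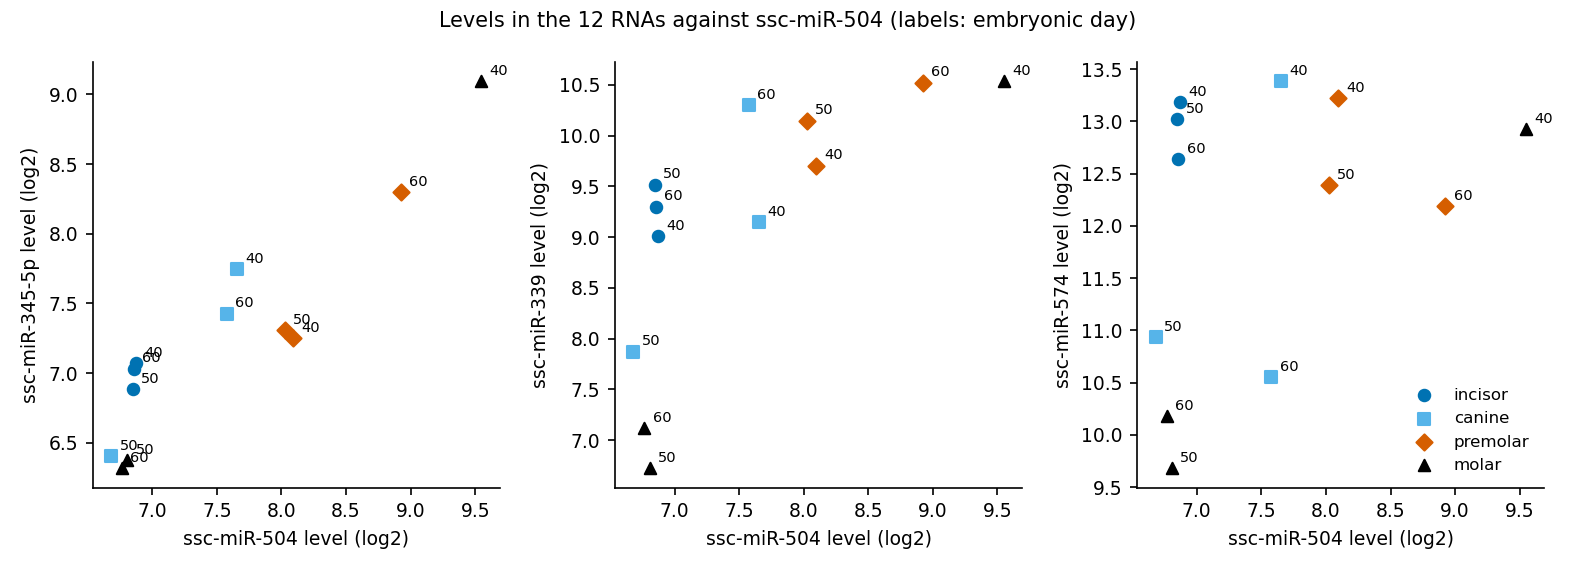
Levels (normalised log2 intensity) of ssc-miR-345-5p, ssc-miR-339 and ssc-miR-574 against those of ssc-miR-504 in the 12 RNAs, coloured by tooth type and labelled by embryonic day. ssc-miR-345-5p follows ssc-miR-504 (r = 0.93), and the 3 incisors are high in ssc-miR-574 (12.64 to 13.19) and low in ssc-miR-504 (6.85 to 6.87).

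Among 171 other mature pig probes, the 3 most like each member were named by Pearson r. Those of ssc-miR-504 were miR-127 (r = 0.83), miR-17-3p (0.80) and miR-744 (0.78), where the 95th percentile over the 171 was 0.63. Those of ssc-miR-345-5p were miR-17-3p (0.94), miR-221 (0.87) and miR-744 (0.87), so that 2 of the 3 were the same, and the 95th percentile was 0.74. All 3 had their highest level in the day-40 molar. Those of ssc-miR-339 were miR-130a (0.96), miR-16 (0.94) and miR-140* (0.93), with a 95th percentile of 0.88 and lower values of 0.87, 0.83 and 0.78 without the later molars. Those of ssc-miR-574 were miR-338 (0.81), miR-130b (0.79) and miR-130a (0.79), which were at 0.54, 0.46 and 0.46 without the later molars. Of the probes named here, miR-338 ranged only from 6.04 to 6.45 over the 12 RNAs and miR-17-3p from 6.29 to 7.08. Such dim and narrow courses limit what their r values can show.

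Lists of other microRNAs were set beside the members by day. Of the 19 tested probes of the p53 and MDM2 network, 0 passed between days 60 and 40 in limma, with a median difference of 0.07 against 0.00 over all tested probes. The smallest p in that list belonged to ssc-miR-30d, at 0.62 ± 0.21 (adjusted p = 0.377). Of the 25 tested probes for cartilage and skeletal differentiation, 0 passed, with a median of 0.00, and ssc-miR-199a-3p, a mesenchymal microRNA, was at 1.14 ± 0.47 (adjusted p = 0.487). The epithelial list had 0 of 6 past the threshold and a median of 0.22, but its probes covered only 3 of its 8 microRNAs. Among the PN probes left out, PN-200c-3p-193 was at 1.24 and PN-200b-3p-110 at 1.15. PN-200a-3p-145 was at -0.43, PN-141-3p-21462 at -0.31 and PN-203-3p-308 at -0.16, so the list median does not stand for epithelial microRNAs as a whole. Markers of muscle, blood cells, endothelium and nerve had 0 of 8, 0 of 5, 0 of 2 and 0 of 9 past it.

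Muscle markers moved with tooth type, and their part in the members' levels was not tested. The summed level of 11 muscle probes was 12.04 to 12.38 in premolars, 9.91 to 11.22 in canines, 10.09 to 10.27 in incisors and 9.78 to 10.03 in molars, on the log2 scale. The premolars thus were high in muscle markers and in miR-504. The day-40 molar, where ssc-miR-504 was highest, had the lowest muscle sum of the 12 RNAs, 9.78. Over the 12 RNAs ssc-miR-504 had r = 0.30 with ssc-miR-133a and 0.30 with ssc-miR-133b, the muscle-enriched pair. ssc-miR-339 had higher values, 0.40 with ssc-miR-133a, 0.41 with ssc-miR-133b and 0.61 with ssc-miR-133a*. ssc-miR-345-5p had 0.08, 0.08 and 0.15 in the same order, and ssc-miR-574 had 0.23, 0.24 and 0.44. The levels of ssc-miR-133a* ranged only from 6.05 in the day-50 molar to 6.52 in the day-40 premolar. Such a dim and narrow course limits what its r values can show about muscle. The summed level of the 6 blood cell probes was 9.06 in the day-40 molar, the lowest of the 12. That of the 6 epithelial probes ran from 12.31 to 13.98 over all RNAs. These sums, like that of muscle, leave out the PN probes.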

How the data were processed

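Small RNA from 12 germs was hybridised in pairs on 6 dual-colour arrays, per the labels. The deposited spot files hold 2 columns of linear spot intensity with no background removed, per the file headers and values (blank medians of 39.2 to 273). The authors' deposited value table holds log2 values, which ran as first-named over second-named RNA (r = 0.86 to 0.96 over probes above background in both RNAs); their scaling and centring are unknown. For image software and steps, the sources used here name nothing.

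RNAs were taken from column headings and dyes from the labels. For the later-molar array these disagree on order, and the dye by position and an exchange of its RNAs were tried. One title gives another day for the day-50 incisor than its other labels, which were followed. A loess surface through 716 blank spots (span 0.3), normexp (offset 50), loess within arrays and Aquantile between arrays (limma 3.58.1, statmod 1.5.0, R 4.3.3) gave log2 intensities, averaged over 4 spots. Day was tested with tooth type, dye and a random array block (correlation 0.83, 5 residual degrees of freedom), two-sided, with Benjamini-Hochberg adjustment over 656 probes. The fit was tested on simulated data, whose correlation within arrays was not matched to that of these data, so that test does not check the p-values given here. With 1 RNA per condition, p-values rest on the spread left by that additive fit and not on the spread between animals; precision is limited by the 6 arrays.

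The members and the lists were chosen with earlier results of these data known. Named besides the members were the 3 most alike mature pig probes for each microRNA (the 5p probe for miR-345), probes sharing a seed, up to 2 probes of a list with the smallest p by day, and miR-133a and miR-133b. Alternatives covered background, normalisation, the filter, the block, the later-molar array and leaving out each RNA or array.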

Additional observations from a re-analysis of the deposited data

Results flagged for a closer look

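Of 50 sets of RNAs examined (the 10 members within each day and within anterior and posterior germs), 5 had a value far from the others by Dixon's criterion. Chance alone marks about 1 in 20 sets. Sets within a day run across tooth types, for which the members had been chosen, so these values are a description and no evidence of a difference between tooth types. Within day 50, the premolar stood above the other 3 germs for ssc-miR-504 (8.02) and for its twin miR-504-5p-623 (7.51). For miR-339-3p-22035, which was near background throughout, the day-40 molar (6.54) and the day-50 premolar (6.68) stood above the other germs of their day. Among the anterior germs, the day-40 canine stood above the other 5 for ssc-miR-345-3p (7.05).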

How the results depend on the processing

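No member passed between days 60 and 40 under the 10 alternatives that kept all 12 RNAs (3 members were tested under the strictest filter), and 0 to 1 did on leaving out an RNA or array; the 1 was ssc-miR-574 (-2.92, adjusted p = 0.0377 without the day-40 premolar and incisor array). Its adjusted p over all 28 alternatives ran from 0.0377 to 0.999, and its difference from -2.92 to -0.40. Leaving out 1 RNA or array moved the day difference of ssc-miR-504 between -1.48 and 0.37, of ssc-miR-339 between -1.52 and 1.00 and of ssc-miR-345-5p between -1.57 and 0.43. Over all probes, 5 passed between days 60 and 40; the count was 1 with no background removed, 9 with median centring, 0 with no scaling between arrays, 8 with no filter, 2 with probes above background in all 12 RNAs, 26 with no array block, 0 with the later molars exchanged, and 0 to 26 on leaving out 1 RNA or array, the most without the day-40 molar. The F test gave 22 with no array block and 0 to 15 on leaving out 1 RNA or array. The cause was not tested. Members with a higher posterior mean numbered 10 with no scaling between arrays, which itself moved the median of all tested probes by 0.20, 0 of the 3 above background in all 12 RNAs, and 5 to 9 on leaving out 1 RNA or array. The members' median posterior minus anterior difference ran from -0.027 to 0.91 on leaving out 1 RNA or array, the highest without the later-molar array. With no scaling between arrays, all 5 negative differences turned positive: ssc-miR-345-3p (0.04), ssc-miR-574 (0.20), miR-504-3p-35231 (0.17), miR-339-5p-24465 (0.34) and ssc-miR-339 (0.30). Without the later-molar array all of these but ssc-miR-345-3p did so too, at 0.40 for ssc-miR-574, 1.04 for ssc-miR-339, 1.07 for its twin and 0.03 for miR-504-3p-35231. For ssc-miR-574 the range on leaving out 1 RNA or array was -0.996 to 0.40. The sign for ssc-miR-504 was positive in all 27 alternatives that gave a value (0.61 to 1.57). Of the member ratios within arrays under the alternatives, 348 moved by less than the SD of their spots and 132 by more, and none that was counted as 2-fold changed sign. The correlation within arrays ran from -0.34 to 0.97 over the alternatives. No paired analysis was possible because each group has 1 RNA, all numbered replicate 1, so that the number links no pairs; the day fit already compares days within tooth types. Probes near background, such as the 3p probes, limit what their levels can show.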
